A study of Caenorhabditis elegans with 36 samples.

Results

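The 7 genes described here carry the signalling and the best-known outputs of the unfolded protein response of the endoplasmic reticulum (UPR-ER) and the integrated stress response in *C. elegans*: *hsp-3*, *hsp-4*, *xbp-1*, *ire-1*, *pek-1*, *atf-6* and *gcn-2*. They were taken by symbol from the WBcel235 annotation, and all 7 matched among its 19973 protein-coding genes on the 6 nuclear chromosomes. For each gene, peaks within 500 bp of the annotated 5′ end and the share of the gene body inside peaks were read in each of 8 deposited lists of ChIP peaks.

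Unfolded proteins in the endoplasmic reticulum activate 3 membrane sensors. IRE-1 splices the mRNA of the transcription factor XBP-1, PEK-1 (PERK in mammals) phosphorylates the translation initiation factor eIF2α, and ATF-6 is in mammals released from the membrane by proteolysis to act in the nucleus. GCN-2 is the second eIF2α kinase of worms, activated by uncharged tRNA, and it joins PEK-1 in the integrated stress response, which lowers translation. *hsp-3* and *hsp-4* both encode BiP, the Hsp70 chaperone of the endoplasmic reticulum, and *hsp-4* is the usual reporter gene of the UPR-ER.

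The study precipitated HDA-1, a class I histone deacetylase, or DVE-1, a homeodomain protein of the mitochondrial unfolded protein response, through GFP from whole worms on day 1 of adulthood. HDA-1 was precipitated from *glp-4(bn2)* worms with the transgene *hda-1p::hda-1::gfp*, fed L4440 (empty vector, control RNAi), L4440 with *atp-2* RNAi, *dve-1* RNAi, or RNAi of both. DVE-1 was precipitated from *glp-4(bn2)* worms with the transgene *dve-1p::dve-1::gfp*, fed control RNAi, control with *atp-2* RNAi, *hda-1* RNAi, or *hda-1* with *atp-2* RNAi. *atp-2* encodes a subunit of the mitochondrial ATP synthase, and its RNAi is the mitochondrial stress of the study. Both proteins were transgenes under their own promoters, all worms carried the *glp-4(bn2)* allele, which leaves adults with few germ cells at the restrictive temperature, and no list from worms without a GFP tag was analysed here. The 36 samples comprised 2 ChIP and 2 input samples a condition, and 3 of each where HDA-1 was precipitated after *dve-1* knockdown.

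The samples of a condition were combined by the authors into 1 list of peak starts and ends with no score, so the lists do not show the depth of each library and no spread between samples could be computed. No test was therefore possible: genes and bases are not replicates, no intervals are given, and a difference below compares 2 lists. The shortest list was that of DVE-1 under control RNAi (4279 peaks), the longest that of HDA-1 under RNAi of both *dve-1* and *atp-2* (9862 peaks), and 8.64 to 13.79% of the genome was covered. The HDA-1 lists made after *dve-1* knockdown had narrower peaks (medians of 733 and 710.5 bp) than those without it (1165 and 1067 bp), and they came from 3 samples each. Their part in the differences below was not tested. The samples with *dve-1* or *hda-1* RNAi are numbered in a block apart from those without it. The study states that its ChIP work took a long time and used more than 1 lot of GFP-trap agarose. Which samples shared a lot is not given. Differences between lists with and without *dve-1* or *hda-1* RNAi therefore cannot be told apart from differences between times or lots. Peak positions do not show whether the RNAi lowered its target.

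HDA-1 was listed at the 5′ end of every one of the 7 genes in every condition. A gene was counted when a peak overlapped the 500 bp on either side of its 5′ end by at least 1 bp, and the HDA-1 lists counted 7 of 7 genes under control RNAi, 7 with *atp-2* RNAi, 7 with *dve-1* RNAi and 7 with both. Over all protein-coding genes the same share was 31.8%, 31.3%, 27.8% and 31.8%. DVE-1 was listed at 6 of 7 genes in each of its lists, and the gene without a DVE-1 peak was *gcn-2* each time. The share over all genes was 19.9% under control RNAi, 31.2% with *atp-2* RNAi, 29.9% with *hda-1* RNAi and 34.9% with *hda-1* and *atp-2* RNAi. Of all protein-coding genes, 22.7% had a 5′ peak in all 4 HDA-1 lists, as all 7 genes here did, 17.7% had one in all 4 DVE-1 lists and 14.2% in all 8, as 6 genes here did. On the chromosomes of these genes the share was 19 to 32.3% on II, 24.5 to 41.4% on III and 24.1 to 43.4% on X.

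No gene gained or lost its 5′ peak between conditions by this rule, although the extent of the peaks varied. Each protein allowed 4 comparisons, which share lists: *atp-2* RNAi added without or with RNAi of the partner protein, and partner RNAi added without or with *atp-2* RNAi. For HDA-1, 0 of 7 genes changed in each, where over all genes the call changed for 5.94% with *atp-2* RNAi, 6.77% with *atp-2* RNAi on *dve-1* RNAi, 10.5% with *dve-1* RNAi and 11% with *dve-1* RNAi on *atp-2* RNAi. For DVE-1, 0 of 7 changed as well, beside 13% of all genes with *atp-2* RNAi, 7.78% with *atp-2* RNAi on *hda-1* RNAi, 13.1% with *hda-1* RNAi and 9.8% with *hda-1* RNAi on *atp-2* RNAi. With 5.94 to 13.1% of all genes changed, a count of 0 among 7 genes is near the background. Of the 56 pairs of a gene and a comparison, 4 changed, all at *atf-6*, when the peak had to hold the 5′ end, when it had to cover 50% of the window or with the widest peaks of each list, and 2 with peaks of at least 500 bp. Of the 56 pairs of a gene and a list, 52 had a 5′ peak, and in 43 of them the peak held the 5′ end itself; the other 9 were the narrow peaks upstream of *gcn-2* and *atf-6*. Placing the peaks by their distance from the 5′ end shows how unlike the 7 genes were in extent.

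**Figure D1:**
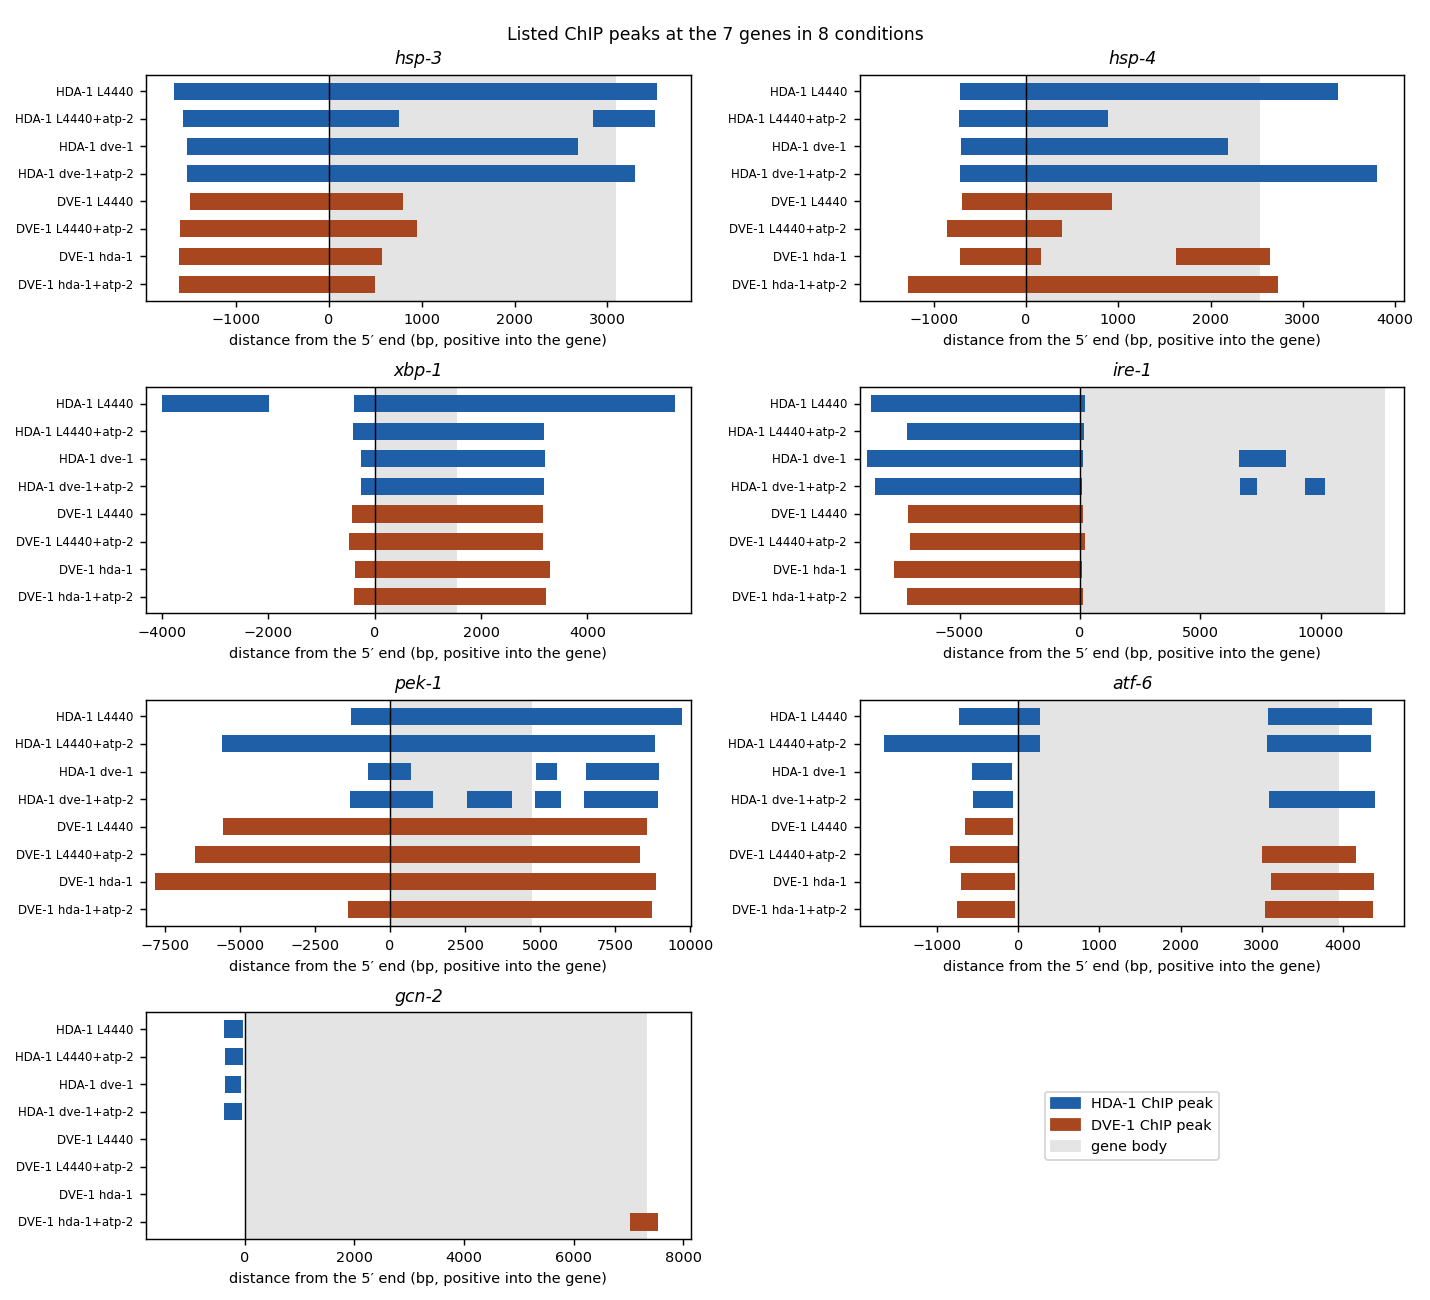
Listed peaks at each gene, with the distance from the annotated 5′ end in bp on the x axis (positive into the gene, a different scale for each gene) and 1 row for each of the 8 lists; blue bars are HDA-1 ChIP peaks, brown bars DVE-1 ChIP peaks and grey the gene body. *xbp-1* was covered from end to end in every row, *ire-1* was covered mainly before its 5′ end, and *gcn-2* had a 5′ peak in the 4 HDA-1 rows and in no DVE-1 row.

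The 2 BiP genes differed between HDA-1 lists in the same order. *hsp-3* (WBGene00002007) spans X:6089028-6092124 on the minus strand, 3097 bp of which 431 bp are intron, and *hsp-4* (WBGene00002008) spans II:7350112-7352645 on the minus strand, 2534 bp of which 302 bp are intron. HDA-1 peaks covered 100% of *hsp-3* under control RNAi, 32.5% with *atp-2* RNAi, 86.5% with *dve-1* RNAi and 100% with *dve-1* and *atp-2* RNAi. For *hsp-4* the HDA-1 cover was 100%, 35.1%, 86.4% and 100% in the same order. The *atp-2* RNAi list was the lowest for both genes, and the lists with *dve-1* RNAi lay at 86.4% or above.

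The upstream edge of the HDA-1 peak stayed nearly in place while the downstream edge moved. At *hsp-4* the upstream edge lay between 702 and 720 bp before the 5′ end in all 4 lists, a spread of 18 bp, and the downstream edge lay between 888 and 3800 bp after it, a spread of 2912 bp. At *hsp-3* the upstream edge spread over 136 bp, from 1530 to 1666 bp before the 5′ end, and the downstream edge over 2778 bp. With *atp-2* RNAi the *hsp-3* peak ended 753 bp into the gene, and a separate peak of 663 bp lay at the 3′ end. The single peak of *hsp-3* under control RNAi was 5198 bp wide, wider than 91.7% of the peaks in its list.

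With *atp-2* RNAi, HDA-1 cover of *hsp-3* was 67.5 percentage points (2091 bp) below that under control RNAi, and that of *hsp-4* 64.9 points (1645 bp) below. A value lower by at least 50 points, a limit chosen after these values were seen, was found in 1.51% of all protein-coding genes. Among the 1254 genes covered to at least 90% under control RNAi, 17.9% were lower by at least 50 points, and of the 4 genes here in that class 2 did. With *dve-1* and *atp-2* RNAi, cover of both genes was higher than with *atp-2* RNAi alone by the same 67.5 and 64.9 points, and 1.71% of all genes were higher by at least 50 points. Values lower by that much with *atp-2* RNAi and higher by that much with *dve-1* RNAi added to it were found in 0.466% of all genes (93 genes). Here too all genes include the 66.7% without an HDA-1 base under control RNAi, which could not be lower. Since the *atp-2* RNAi list enters both comparisons, they are not independent of each other.

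DVE-1 covered less of *hsp-3* and varied less there. It covered 25.7% of *hsp-3* under control RNAi, 30.6% with *atp-2* RNAi, 18.5% with *hda-1* RNAi and 15.9% with both, always as 1 peak over the 5′ end. The 5′ peak of *hsp-3* also held the 5′ end of C15H9.5, which lies 1176 bp upstream on the other strand, in all 8 lists. DVE-1 covered *hsp-4* to 36.8%, 15.3%, 42.2% and 100% in the same order. The 100% came from 1 peak of 4011 bp with *hda-1* and *atp-2* RNAi, where *hda-1* RNAi alone had left a peak over the 5′ end and another at the 3′ end. The *hsp-4* value was 57.8 points higher than with *hda-1* RNAi and 84.7 points higher than with *atp-2* RNAi, and values higher by at least 50 points were found in 1.51% and 2% of all genes in these comparisons. Their coding sequences were 77.7% identical over 1971 aligned bases, with a longest identical run of 25 bases in the alignment. The authors kept uniquely mapped reads, and how reads were assigned between the 2 genes was not tested.

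The 250 bases before the 5′ end of *hsp-4* lay wholly inside peaks in all 8 lists. They are shown because the core of the unfolded protein response element, TGACGTG, was found there, on the other strand, at positions -83 to -77 (position -1 is the base before the 5′ end). This word, in either orientation, was present in 2.39% of the 19973 upstream regions of the same length and in 1 of the 6 regions of these genes reported here. CCACG, the part of the mammalian ER stress response element that ATF6 binds, was also found before *hsp-4*, at positions -133 to -129, and in 17.6% of all regions. The full element, CCAAT and CCACG separated by 9 bases, was in none of the 6 and in 0.02% of all. Sequences are from the RefSeq copy of WBcel235, 5′ to 3′ on the strand of the gene, here for II:7352646-7352895, with matches on either strand in capitals.
hsp-4: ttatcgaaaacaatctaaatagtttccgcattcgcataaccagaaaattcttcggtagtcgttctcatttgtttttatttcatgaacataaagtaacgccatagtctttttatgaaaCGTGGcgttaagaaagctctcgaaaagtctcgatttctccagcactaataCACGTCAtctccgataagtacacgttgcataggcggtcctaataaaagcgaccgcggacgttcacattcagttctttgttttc

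*xbp-1* (WBGene00006959, III:4193809-4195358, plus strand, 1550 bp), whose spliced mRNA gives the active transcription factor, was covered whole in all 8 lists, which was the case for 1.3% of all protein-coding genes. Of the 7 genes *xbp-1* is the shortest, and the share among genes of like length was not computed. The covering peak was 3450 to 6034 bp wide for HDA-1 and 3600 to 3666 bp wide for DVE-1. It began between 266 and 413 bp before the 5′ end in the HDA-1 lists and between 367 and 478 bp before it in the DVE-1 lists. It ended between 3164 and 3298 bp after the 5′ end in 7 lists and 5647 bp after it in the HDA-1 list under control RNAi, where it also held the 5′ end of the downstream neighbour *asd-1*. The upstream 250 bases, III:4193559-4193808, held TGACGTCA, the cyclic AMP response element, at positions -73 to -66 and CTTATCA, which read on the other strand is the GATA factor word TGATAAG, at positions -123 to -117. These words were present in 1.23% and 8.2% of all upstream regions.
xbp-1: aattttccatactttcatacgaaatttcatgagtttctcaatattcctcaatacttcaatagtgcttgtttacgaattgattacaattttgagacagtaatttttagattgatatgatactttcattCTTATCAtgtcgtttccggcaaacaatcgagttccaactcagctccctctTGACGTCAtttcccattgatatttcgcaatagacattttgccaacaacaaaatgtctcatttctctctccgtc

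*ire-1* (WBGene00002147, II:8112243-8124910, minus strand, 12668 bp), the sensor that splices *xbp-1*, had wide peaks at its 5′ end that lay almost wholly outside the gene. They reached from 7070 to 8845 bp before the 5′ end to between 76 and 216 bp inside it, and each was wider than at least 96.6% of the peaks in its list. All 8 also held the 5′ end of *ulp-4*, a SUMO protease gene on the other strand that starts 5050 bp upstream, and that of the noncoding RNA C41C4.14, so the peak cannot be ascribed to 1 of these genes. HDA-1 cover of the gene body was 1.6% under control RNAi, 1.3% with *atp-2* RNAi, 16.5% with *dve-1* RNAi and 13% with both. DVE-1 cover was 1.0%, 1.7%, 0.7% and 1.1%. The higher HDA-1 values came from peaks inside the gene that the 2 lists with *dve-1* RNAi held and the other 6 lists did not.

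With *dve-1* RNAi that inner HDA-1 peak ran from 6602 to 8562 bp after the 5′ end of *ire-1*, and it held the 5′ end of *unc-105*, a degenerin ion channel gene on the other strand inside *ire-1*. With *dve-1* and *atp-2* RNAi there were 2 inner peaks, of 732 and 832 bp, and the second held the 5′ end of the shorter annotated *ire-1* transcript, 9965 bp after that of the longer one. *unc-105* was named after its values were seen.

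*pek-1* (WBGene00003970, X:11410176-11414887, minus strand, 4712 bp), the PERK gene, was wholly covered by both proteins except in the 2 HDA-1 lists with *dve-1* RNAi. HDA-1 covered 100% under control RNAi, 100% with *atp-2* RNAi, 15.1% with *dve-1* RNAi and 62.4% with both, whereas DVE-1 covered 100% in each of its 4 lists. The peaks that covered it whole were 10141 to 16677 bp wide, and each was wider than at least 98.6% of its list. With *dve-1* RNAi a peak of 1440 bp lay over the 5′ end, with 2 more beyond the 3′ end. The HDA-1 value with *dve-1* RNAi was 84.9 points (4002 bp) below that under control RNAi, and a value lower by at least 50 points was found in 2.59% of all genes. Of all genes, however, 66.7% had no HDA-1 base under control RNAi and could not be lower. The share among genes covered as widely as *pek-1* was not computed. The wide peaks also held the 5′ end of F08B12.4, and those with *atp-2* RNAi (HDA-1) and under control, *atp-2* or *hda-1* RNAi (DVE-1) held those of F46C3.2 and F46C3.6. The HDA-1 peak under control RNAi held that of *slo-2*, a potassium channel gene.

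*atf-6* (WBGene00000222, X:12480948-12484904, plus strand, 3957 bp) had a peak at or just before its 5′ end in all 8 lists and, in 6, a second peak at its 3′ end. The 5′ peak was 495 to 1921 bp wide for HDA-1 and 594 to 836 bp wide for DVE-1. It held the annotated 5′ end in the HDA-1 lists under control and *atp-2* RNAi and in the DVE-1 list with *atp-2* RNAi, and in the other 5 it stopped between positions -76 and -38. HDA-1 cover of the body was 29.0% under control RNAi, 29.4% with *atp-2* RNAi, 0% with *dve-1* RNAi and 21.8% with both. DVE-1 cover was 0%, 24.3%, 21.2% and 23.0%. The 2 lists at 0% were those without the 3′ peak. That peak, 1161 to 1328 bp wide, held the 5′ end of the next gene, *tbc-13*, in all 6 lists; *tbc-13* was named after its values were seen.

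The bases before the annotated 5′ end of *atf-6* (X:12480698-12480947) are shown because 5 of the 8 peaks lay before the 5′ end and not on it. They ended in TTTCAG (in capitals), the usual *C. elegans* splice acceptor, directly at the annotated 5′ end. The same was true of 12.3% of all upstream regions and of no other of the 6 regions; this word was searched after the sequence was seen. Many worm mRNAs are trans-spliced, and an annotated 5′ end can then lie downstream of the start of transcription. None of the stress response words was found in this region.
atf-6: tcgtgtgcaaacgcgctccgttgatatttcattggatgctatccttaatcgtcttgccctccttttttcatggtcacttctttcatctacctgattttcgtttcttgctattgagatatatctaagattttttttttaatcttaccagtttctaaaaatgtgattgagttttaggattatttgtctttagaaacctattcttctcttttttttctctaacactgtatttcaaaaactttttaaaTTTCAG

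*gcn-2* (WBGene00013591, II:13084164-13091501, plus strand, 7338 bp), the kinase that senses uncharged tRNA, was the gene at which the 5′ calls of the proteins differed. HDA-1 peaks of 350 bp (control RNAi), 326 bp (*atp-2* RNAi), 305 bp (*dve-1* RNAi) and 322 bp (both) lay before its 5′ end, all between positions -375 and -26. They were among the narrowest of their lists, wider than 3.3%, 1.6%, 12.7% and 15.9% of the peaks. No DVE-1 list held a peak within 2000 bp of the 5′ end. A 5′ peak in all 4 HDA-1 lists and none in the DVE-1 lists was found in 1.56% of all protein-coding genes (312 genes). The difference rests on narrow peaks before the 5′ end: *gcn-2* had 0 HDA-1 and 0 DVE-1 calls when the peak had to hold the 5′ end or cover 50% of the window, with the widest peaks of each list, or with peaks of at least 500 bp. The HDA-1 peaks also held the 5′ end of Y81G3A.1, which lies 238 bp upstream on the other strand, so the 2 divergent genes share the peak.

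The gene body of *gcn-2* was covered to 0% in 7 lists and to 4.1% in the DVE-1 list with *hda-1* and *atp-2* RNAi, by a peak of 504 bp at the 3′ end that held the 5′ end of the next gene, Y81G3A.4 (named after its values were seen). Of the 250 bases before the 5′ end (II:13083914-13084163), HDA-1 peaks covered 225, 215, 190 and 198 and DVE-1 peaks 0. None of the stress response words was found in them.
gcn-2: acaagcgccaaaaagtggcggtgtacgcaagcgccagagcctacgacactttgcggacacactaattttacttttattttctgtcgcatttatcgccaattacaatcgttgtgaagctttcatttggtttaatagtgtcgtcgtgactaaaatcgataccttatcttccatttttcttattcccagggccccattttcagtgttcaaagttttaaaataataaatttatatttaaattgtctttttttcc

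Over the 7 genes the median share of the body covered by HDA-1 was 100% under control RNAi, 32.5% with *atp-2* RNAi, 16.5% with *dve-1* RNAi and 62.4% with both. For DVE-1 it was 25.7%, 24.3%, 21.2% and 23.0%. The median over all genes was 0% in every list, since 64.6 to 79.2% of genes had no base inside a peak. The genes ranged from 0% to 100% in 7 lists and from 1.1% to 100% in the DVE-1 list with *hda-1* and *atp-2* RNAi, so the HDA-1 medians rest on which gene stood in the middle.

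**Figure D2:**
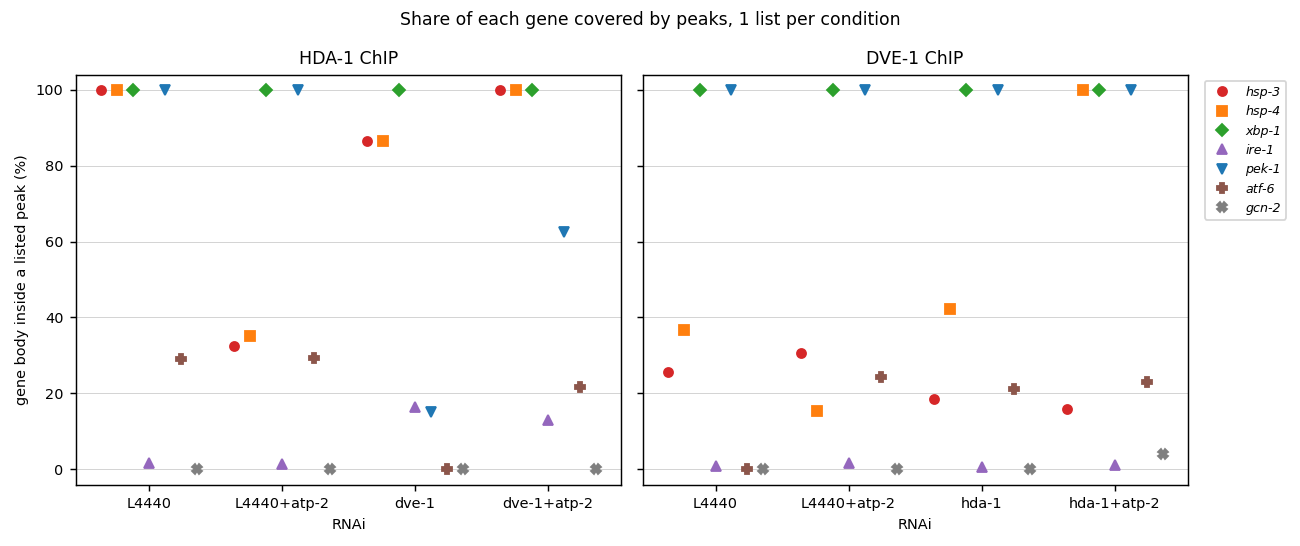
Share of each gene body inside a listed peak (y axis, %) by RNAi (x axis) in the HDA-1 panel and the DVE-1 panel, 1 point per gene and list and no error, since each condition has 1 list. *hsp-3* and *hsp-4* lie at 100% under control RNAi and at 32.5% and 35.1% with *atp-2* RNAi for HDA-1, and *xbp-1* lies at 100% throughout.

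For HDA-1, *atp-2* RNAi alone was accompanied by lower cover of 3 genes, higher cover of 1 and 3 equal within 0.05 points, beside 18.3% of all genes with lower and 13.4% with higher cover. On *dve-1* RNAi, cover was higher with *atp-2* RNAi for 4 genes and lower for 1, beside 20% of all genes with higher and 11.3% with lower cover. For DVE-1, 3 genes were higher and 1 lower with *atp-2* RNAi, beside 24.7% and 5.53% of all genes. *hsp-3* and *hsp-4* stood far from most genes in the first comparison and nearer in the second, where their cover was 13.5 and 13.6 points higher. In the second they went from 86.5% and 86.4% to 100%, so no larger rise was possible. In the first, 66.7% of all genes had no HDA-1 base under control RNAi and could not be lower. Among the 1254 genes covered to at least 90% there, 17.9% were lower by at least 50 points.

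**Figure D3:**
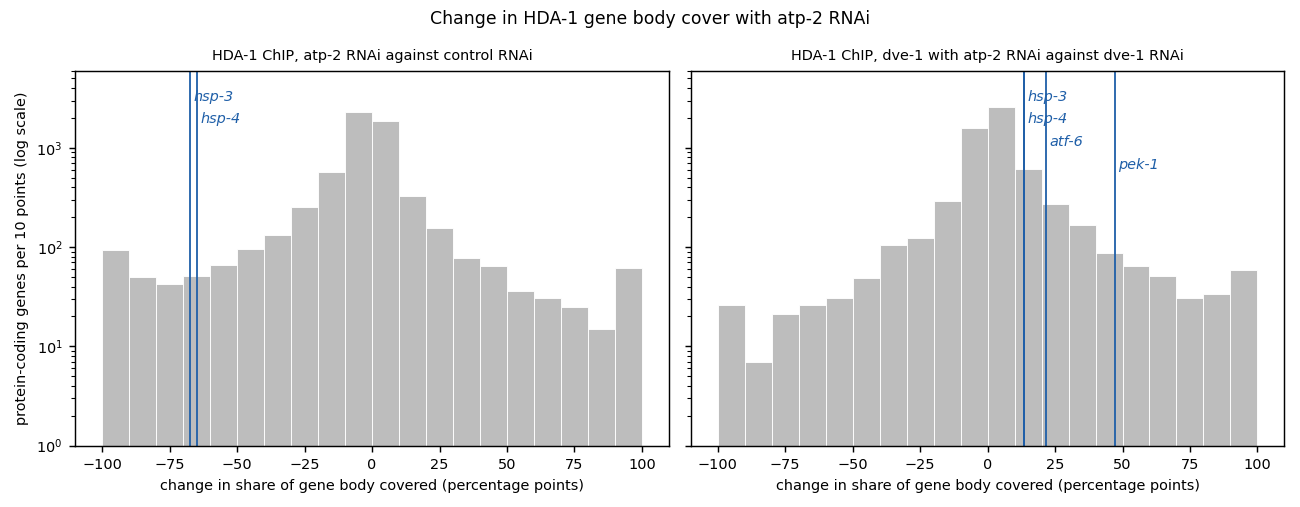
Number of protein-coding genes (y axis, log scale) by the change in the share of the gene body covered by HDA-1 peaks (x axis, percentage points, bins of 10; genes that changed by 0.05 points or less are left out), for *atp-2* RNAi against control RNAi and for *dve-1* with *atp-2* RNAi against *dve-1* RNAi. Lines mark the genes described here that changed by over 5 points: *hsp-3* at -67.5 and *hsp-4* at -64.9 in the first panel, and *hsp-3* at 13.5, *hsp-4* at 13.6, *atf-6* at 21.8 and *pek-1* at 47.3 in the second.

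Under control RNAi and *atp-2* RNAi, most bases under DVE-1 peaks were also under HDA-1 peaks, at these genes and over all genes. In the genes with 500 bp on either side, both proteins covered 11947 bp under control RNAi, HDA-1 alone 6870 bp and DVE-1 alone 45 bp, so that 99.6% of the DVE-1 bases and 63.5% of the HDA-1 bases were shared, beside 84.1% and 52.5% over all protein-coding genes measured the same way. With *atp-2* RNAi both covered 12577 bp, HDA-1 alone 1950 bp and DVE-1 alone 377 bp, and the shared parts were 97.1% of the DVE-1 and 86.6% of the HDA-1 bases, beside 76.7% and 75.6% over all genes. Of the HDA-1 bases at *hsp-3*, 32.2% were shared under control RNAi and 65.4% with *atp-2* RNAi, and at *atf-6* 21.3% and 77.7%. *pek-1* was shared whole in both and gave 5712 bp of the shared bases in each, so the pooled shares lean on this gene. Under control RNAi the HDA-1 share was above the 52.5% over all genes at *xbp-1* (100%), *ire-1* (90.3%) and *pek-1* (100%). It was below at *hsp-3*, *atf-6*, *hsp-4* (40.5%) and *gcn-2*. *gcn-2* had 0 shared bases in all 4 pairs of lists.

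With *dve-1* RNAi (HDA-1) beside *hda-1* RNAi (DVE-1), both proteins covered 7213 bp, HDA-1 alone 5877 bp and DVE-1 alone 5996 bp. The shared parts, 54.6% of the DVE-1 and 55.1% of the HDA-1 bases, were near the 54.7% and 56.9% over all genes. The bases with DVE-1 alone lay mainly at *pek-1* (4135 bp) and *atf-6* (1305 bp), and those with HDA-1 alone mainly at *hsp-3* (2105 bp), *ire-1* (2002 bp) and *hsp-4* (1465 bp). With *atp-2* RNAi added to each, 12677 bp were shared, 82.8% of the DVE-1 and 71.6% of the HDA-1 bases, beside 57.2% and 59.4% over all genes. These pairs of lists come from worms in which different genes were knocked down.

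The other genes of the pathway were read from 5 lists of 54 genes, of which 53 matched the annotation (*abu-3* did not). Of 12 genes for ER chaperones and folding enzymes, 10 had an HDA-1 5′ peak under control RNAi, 10 with *atp-2* RNAi, 9 with *dve-1* RNAi and 9 with both, and for DVE-1 the counts were 10, 10, 9 and 10, beside the shares over all genes given above. *dnj-27*, an ER protein with thioredoxin domains, had none in any list. Of 12 genes of ER-associated degradation, 4 or 5 had an HDA-1 peak (33.3 to 41.7%, beside 27.8 to 31.8% of all genes). For DVE-1, 4 to 6 had a peak (33.3 to 50%, beside 19.9 to 34.9%). With 12 genes these counts are near the background. Of 11 genes for eIF2, its exchange factor eIF2B and the GCN-2 partners, 10, 9, 9 and 11 had an HDA-1 peak in the same order of lists and 4, 8, 6 and 7 a DVE-1 peak. These were 81.8 to 100% for HDA-1, beside 27.8 to 31.8% of all genes, and 36.4 to 72.7% for DVE-1, beside 19.9 to 34.9%. Of 14 matched *abu* genes, a repeated family for which uniquely mapped reads may be few, 1 or 2 had an HDA-1 peak and 0 to 2 a DVE-1 peak. Those shares, 7.14 to 14.3% and 0 to 14.3%, lay below the ones over all genes. All 53 genes together had 27 to 30 HDA-1 calls (50.9 to 56.6%) and 19 to 27 DVE-1 calls (35.8 to 50.9%) per list. Over all genes the shares were 27.8 to 31.8% and 19.9 to 34.9%.

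**Figure D4:**
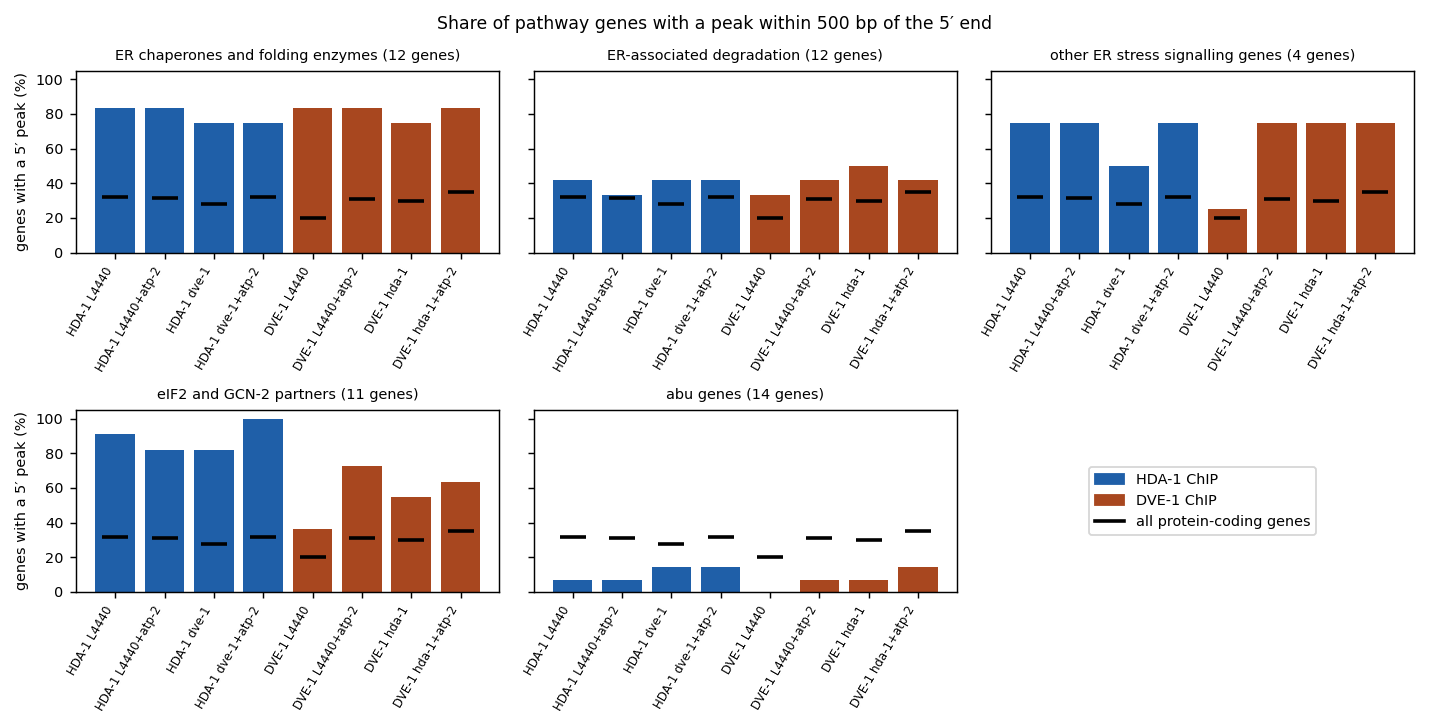
Share of the genes of each pathway list with a peak within 500 bp of the 5′ end (y axis, %) in the 8 lists (x axis); black dashes give the share over all protein-coding genes. The bars of the ER chaperones and folding enzymes stand at 75 or 83.3%, above the dashes in every list, and those of the *abu* genes at 0 to 14.3%, below them.

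Among these genes more DVE-1 than HDA-1 calls changed with *atp-2* RNAi, as over all genes, where 13% of DVE-1 and 5.94% of HDA-1 calls changed. For HDA-1, 0 of 53 gained and 2 lost the 5′ peak: *ufd-1*, a partner of the segregase CDC-48, and *eif-2Balpha*, an eIF2B subunit. For DVE-1, 9 gained and 1 lost it. The gains were *dnj-20* (an ER DnaJ protein), *der-2* (a derlin), *rtcb-1* (the RNA ligase that joins *xbp-1* exons), *hut-1* (a UDP-galactose transporter homologue), *eif-2beta*, *eif-2Bbeta*, *eif-2Bgamma*, *eif-2Bdelta* and *abu-13*, and the loss was *ero-1*, an ER oxidase. The DVE-1 list under control RNAi was the shortest, and over all genes the DVE-1 share was 19.9% there and 31.2% with *atp-2* RNAi.

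Among the 53 pathway genes, in the share of the body covered over the 8 lists, *hsp-3* was most like *pdi-6* and *crt-1* (mean absolute differences of 12.2 and 16.6 points), genes of a protein disulfide isomerase and calreticulin, and *hsp-4* was nearest to the same 2 of the 53 genes (18.9 and 29.3 points). HDA-1 cover of *pdi-6* was 100% under control RNAi, 52.0% with *atp-2* RNAi, 87.0% with *dve-1* RNAi and 87.7% with both, whereas *crt-1* was at 100% in all 4. *hsp-3* and *hsp-4* differed from each other by 17.1 points on average, less than *hsp-4* differed from *pdi-6* or *crt-1*. *xbp-1* matched *atf-4*, the transcription factor gene downstream of eIF2α phosphorylation, which was also covered whole in all 8 lists (0 points), and then *pdi-2* (6.23 points). *pek-1* was nearest to *atf-4* and *dnj-20* (15.3 and 20.0 points), *ire-1* to *eif-2Bbeta* and *abcf-3* (3.31 and 3.34 points) and *atf-6* to *enpl-1* and *fic-1* (8.54 and 8.65 points). *gcn-2* was nearest to *abu-1* (0.29 points), and *abu-10*, *abu-11* and *abu-14* followed at 0.52 points. All of these had almost no base inside a peak. Every pathway gene without a body base inside a peak in any list, such as *ero-1* and *dnj-27*, tied at the same 0.52 points. The limit of 4 names cut this tie, so the names show no likeness to the *abu* family in particular.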

How the data were processed

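ChIP and input libraries of 36 samples were made by the study, and groups were taken from the labels. The authors trimmed reads with Trim Galore, mapped them to ce11 with BWA 0.7.13-r1126, kept uniquely mapped proper pairs, removed duplicates with Picard 2.17.6 and called broad peaks with MACS2 2.1.1. They deposited 1 list of peak positions for each of 8 conditions, and these deposited positions, in bp, hold no score, signal or count. The rule by which samples were combined is not given in the sources used here. The study states a minimum number of reads for all samples, but the lists do not give the depth of each.

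Starts, counted from 0 in the files, are given counted from 1. All peaks lay within the chromosomes of WBcel235, the assembly of ce11, and no peaks of a list overlapped. Gene positions came from Ensembl release 115. Peaks within 500 bp of the 5′ end (at least 1 bp of overlap) and bases of the gene body inside peaks were counted with Python 3.11.15, numpy 2.4.6 and scipy 1.17.1, tested on simulated data and checked against bedtools 2.31.1 (159784 of 159784 calls and as many body counts equal). Figures were drawn with matplotlib 3.10.9. Words were searched in the 250 bases before the 5′ ends of all genes, those of *hsp-3* not being reported here, from the genome and annotation in place of a promoter table. The spliced coding sequences of *hsp-3* and *hsp-4* were aligned globally.

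The 7 genes, the pathway lists and the words were chosen with earlier results of these data known. Named besides the 7 genes were pathway genes whose 5′ call differed between the lists without and with *atp-2* RNAi (at most 6 per list), the 2 pathway genes nearest to each of the 7 in body cover (ties up to 4) and genes whose 5′ end lay in the same 5′ peak; *dnj-27* and *abu-3* were named with their values in view. The alternatives varied the distance, the overlap, the peaks kept, the 5′ end and the part of the gene counted. Those for *hsp-3* and *hsp-4* cover and for shared bases were chosen after seeing the data. No set or other test was run.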

Additional observations from a re-analysis of the deposited data

Results flagged for a closer look

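The change in body cover with *atp-2* RNAi went one way without and the other way with RNAi of the partner protein in 3 cases, each by at least 10 points in both directions. HDA-1 cover of *hsp-3* was 67.5 points lower with *atp-2* RNAi than under control RNAi, and 13.5 points higher with *atp-2* RNAi added to *dve-1* RNAi, a difference of 81.0 points. HDA-1 cover of *hsp-4* was 64.9 points lower and 13.6 points higher in the same comparisons, a difference of 78.5 points. Both genes reached 100% HDA-1 cover with *dve-1* and *atp-2* RNAi, so these rises could not have been larger. DVE-1 cover of *hsp-4* was 21.5 points lower with *atp-2* RNAi than under control RNAi, and 57.8 points higher when it was added to *hda-1* RNAi, a difference of 79.3 points. With 1 list per condition the differences were not tested. The same pattern, lower and then higher by at least 10 points, was found in 1.43% of all protein-coding genes for HDA-1 (286 genes) and in 0.35% for DVE-1 (70 genes). A turn in either direction was found in 1.72% for HDA-1 (344 genes) and in 1.11% for DVE-1 (221 genes). All genes include those without a base inside a peak under control RNAi, which could not be lower. They were 66.7% for HDA-1 and 79.2% for DVE-1.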

How the results depend on the processing

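The 5′ calls of *hsp-3*, *hsp-4*, *xbp-1*, *ire-1* and *pek-1* were equal in all 8 lists under all 8 alternatives, and 0 of 56 calls of the 7 genes differed with a distance of 250, 1000 or 2000 bp or with the 5′ end of any transcript. The calls that were lost were those of *atf-6* and *gcn-2*: 9 of 56 when the peak had to hold the 5′ end itself, 9 when it had to cover 50% of the window, 8 with the 4279 widest peaks of each list and 6 with peaks of at least 500 bp. *gcn-2* then had no HDA-1 call in any list. The number of calls that differed between lists, 0 of 56 pairs of a gene and a comparison, became 4, 4, 4 and 2 under these alternatives, all at *atf-6*, whose 5′ peak ended close to the 5′ end or was short. In the order of the lists above, with 500 bp upstream added to the body the median cover was 94.4%, 41.9%, 23.2% and 66.0% for HDA-1 and 36.1%, 32.8%, 29.9% and 30.7% for DVE-1. With exons only it was 34.4% (HDA-1, *atp-2* RNAi), 12.9% (*dve-1* RNAi), 66.9% (*dve-1* with *atp-2* RNAi), and for DVE-1 30.0% (*atp-2* RNAi), 29.9% (*hda-1* RNAi) and 29.9% (both). With the widest peaks it was 29.4% for HDA-1 with *atp-2* RNAi. There *hsp-3*, the middle gene at 32.5%, was covered to 24.3%, and *atf-6*, at 29.4%, became the middle gene. With exons only, the middle gene was *hsp-3* in the HDA-1 list with *atp-2* RNAi and *pek-1* in the 2 with *dve-1* RNAi. It was *atf-6* in the DVE-1 lists named. With *dve-1* RNAi alone, *pek-1* (12.9% of exons) took the place of *ire-1*, the middle gene over the body (16.5%). The cause of the shifts with 500 bp upstream was not tested. Among the 53 pathway genes, DVE-1 calls with *hda-1* RNAi went from 25 to 15 when the peak had to hold the 5′ end. Bases under both proteins did not change with the widest peaks or with peaks of at least 500 bp, alternatives chosen after seeing the data. Under the same kind of alternatives HDA-1 cover with *atp-2* RNAi stayed between 24.3 and 41.9% for *hsp-3* and between 32.8 and 45.8% for *hsp-4*.

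No paired analysis was possible because the samples of a condition are combined in 1 list, and leaving out a sample was not possible for the same reason. The lists hold no signal and do not give the depth of each sample, so how far below the threshold of the peak caller an unlisted region lay is not known.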

Other observations

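Away from their 5′ ends the 7 genes held 13 listed peaks over the 8 lists. Of these, 8 held the annotated 5′ end of another protein-coding gene (*tbc-13* at *atf-6* in 6 lists, *unc-105* inside *ire-1* in 1 and Y81G3A.4 at *gcn-2* in 1), 1 held the 5′ end of the shorter *ire-1* transcript and 4 held none. The 4 were at *hsp-3* (HDA-1, *atp-2* RNAi), *hsp-4* (DVE-1, *hda-1* RNAi), *ire-1* and *pek-1* (both HDA-1, *dve-1* with *atp-2* RNAi).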
